A study of Mus musculus with 6 samples.

Results

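The triad genes examined here encode the machinery of skeletal muscle excitation-contraction coupling, and 10 were taken by symbol from the 55401 genes of the count table. They were the ryanodine receptors Ryr1 and Ryr2, the L-type calcium channel genes Cacna1s, Cacna1c, Cacnb1, Cacng1 and Stac3, and the junctional protein genes Jph1, Jph2 and Trdn. All 10 passed the filter on low counts and were among the 17222 genes tested. RNA was sequenced from tibialis anterior (TA) muscles of C57BL/6 mice injected with AAV-GFP (3 samples) or AAV-RBM20 (3 samples), to ask what raising RBM20, a splicing regulator of titin, does in Bmal1-deficient muscle. Both groups had the genotype HSA-MCM-Bmal1-/-, in which a tamoxifen-inducible Cre driven by a human skeletal actin promoter deletes the clock gene Bmal1 from muscle fibers. Mice of both groups were kept to 12 to 16 weeks of age and given 2 mg of tamoxifen per day for 5 days. Virus was injected throughout the TA 4 weeks after recombination, and muscle was taken 4 weeks after the virus. The study's methods give male mice, a mouse Rbm20 cDNA with an HA tag behind a CMV promoter, which is not restricted to muscle fibers, and a larger dose of the RBM20 vector than of the GFP vector, so dose and transgene cannot be told apart. The study's protein blots list both vectors in opposite TA muscles of some mice, and whether the RNA samples share mice in this way is not given in the sources used here. No muscle with intact Bmal1 was analyzed here.

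In a muscle fiber, the action potential travels along T-tubules, invaginations of the surface membrane that meet the sarcoplasmic reticulum at the triad. The T-tubule channel Cav1.1 senses the voltage and opens the ryanodine receptor RyR1 in the reticulum membrane, so that stored calcium reaches the sarcomere. Ryr2 and Cacna1c encode the release channel and L-type channel that serve this step in the heart, and Trdn, Ryr2 and Cacna1c are known splicing targets of RBM20 in heart muscle. Counts per gene carry no information on splicing, and in whole muscle fewer cells of a type cannot be told apart from less RNA per cell.

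Of the 10 triad genes, 7 were lower and 3 were higher in AAV-RBM20 than in AAV-GFP muscle by the sign of the estimate. Over all genes tested, 8393 of 17222 were lower by that sign. None of the differences of the triad genes passed the test across all genes. Jph1, Trdn, Cacna1s, Cacng1, Jph2 and Stac3 had means 17.3 to 26.8% below AAV-GFP and were lower in 3 of 3 same-numbered pairs of libraries. The mean of Cacnb1, another gene of the T-tubule channel, differed by -0.345%, and it was lower in 2 of 3 pairs. The median log2 fold change of the triad genes was -0.30, against 0.0090 over all genes tested. By the quasi-likelihood test of edgeR, adjusted over all genes by Benjamini-Hochberg, 0 of 10 triad genes passed an adjusted p of 0.05, where the share of all genes passing was 0%. At an unadjusted p of 0.05, 1 triad gene, Jph1, was lower, and 3.82% of all genes were lower at that threshold. DESeq2 and limma-voom without the block also called 0 triad genes, beside 0.409% and 0% of all genes that they tested.

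Deviations of the tested genes from their group means correlated at 0.42, 0.20 and 0.48 between same-numbered libraries. Differently numbered combinations also reached 0.22 and 0.13, and no label says that the numbers mark pairs. A fit that took the replicate number as a block again gave 0 calls among the triad genes at an adjusted p of 0.05, beside 0.145% of all genes. At an unadjusted p of 0.05 in that fit, 4 triad genes were lower (Cacna1s, Stac3, Jph1 and Trdn), beside 9.92% of all genes. The 2 groups did not overlap in 4 triad genes (Cacng1, Stac3, Jph1 and Jph2), all lower in AAV-RBM20, beside 9.04% of all genes. The 6 triad genes that were lower in every same-numbered pair stood beside 23% of all genes. DESeq2 with the block called 3 triad genes lower, Jph1 (adjusted p = 0.00894), Cacna1s (0.0200) and Trdn (0.0334), beside 2.62% of the genes that it tested called lower. The call therefore turned on the tool, since edgeR with the same block gave adjusted p-values of 0.133, 0.168 and 0.183 for these genes.

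The libraries held 41400132 to 54226618 counts each. The transgene's own gene, Rbm20, measured 164 to 170 CPM (counts scaled to a common, TMM-corrected library size) in AAV-GFP and 406 to 545 CPM in AAV-RBM20. Its log2 fold change of 1.54 had an edgeR adjusted p of 0.121, or 0.0107 with the replicate block. The 2 libraries numbered 3 stood apart from the others of their groups: Ttn took 4.48% and 9.05% of their counts against 16.9 to 17.8% in the other 4, and mitochondrially encoded genes took 11.4 to 12.5% against 6.41 to 7.66%. Differences of the triad genes are therefore also given without these 2 libraries.

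Without both libraries numbered 3, which left 2 libraries per group, edgeR called 2 triad genes lower, beside 2.05% of all genes called lower. The 2 genes were Jph1 (adjusted p = 0.0186) and Cacna1s (adjusted p = 0.0395). The median log2 fold change of the triad genes was then -0.13, and it was -0.14 without AAV-RBM20 replicate 3 alone. Estimates for Jph1 (-0.35) and Cacna1s (-0.32) were near their values over all 6 libraries, whereas Jph2 (-0.11), Cacng1 (-0.11) and Stac3 (-0.13) came closer to 0. With both libraries numbered 1, or both numbered 2, left out instead, edgeR called 0 triad genes and 0 of all genes.

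**Figure D1:**
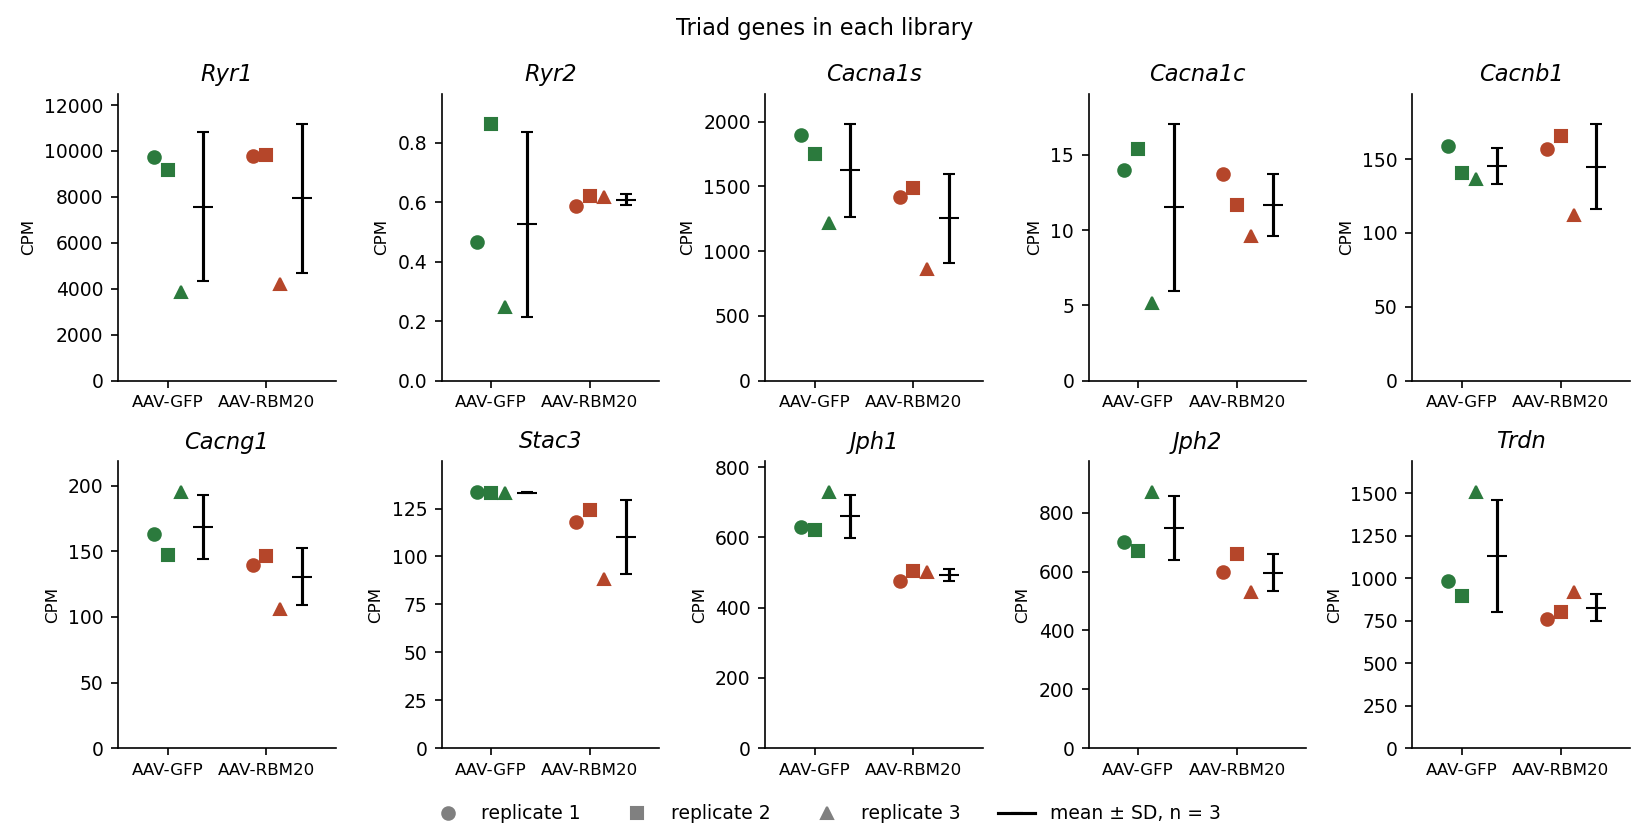
CPM of each triad gene (y axis, from 0) in the 3 AAV-GFP and 3 AAV-RBM20 libraries, with symbols for the replicate number and bars for the mean ± SD (n = 3). The AAV-RBM20 points of Jph1 lie between 474 and 503 CPM and its AAV-GFP points, of which 620 CPM is the lowest, all lie above them, while the Ryr1 points of both replicates numbered 3 sit far below the others.

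The promoter windows of Cacna1s, Jph2 and Ryr1 are shown as examples of triad gene windows with and without an E-box. They are RefSeq windows on GRCm38.p6 from 250 bases before to 50 bases after an annotated start, read 5′ to 3′ on the gene's strand, with every CANNTG in capitals. CANNTG is the E-box, the letters bound by basic helix-loop-helix proteins such as MyoD and, in the form CACGTG, the CLOCK and BMAL1 pair.
Cacna1s, chr1:136052561-136052860, plus strand: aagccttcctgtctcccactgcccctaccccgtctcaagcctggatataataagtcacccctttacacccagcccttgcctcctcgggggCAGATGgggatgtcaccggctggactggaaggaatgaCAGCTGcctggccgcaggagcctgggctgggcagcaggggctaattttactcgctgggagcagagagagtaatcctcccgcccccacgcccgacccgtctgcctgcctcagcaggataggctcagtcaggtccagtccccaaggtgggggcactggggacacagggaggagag
Jph2, chr2:163397924-163398223, minus strand: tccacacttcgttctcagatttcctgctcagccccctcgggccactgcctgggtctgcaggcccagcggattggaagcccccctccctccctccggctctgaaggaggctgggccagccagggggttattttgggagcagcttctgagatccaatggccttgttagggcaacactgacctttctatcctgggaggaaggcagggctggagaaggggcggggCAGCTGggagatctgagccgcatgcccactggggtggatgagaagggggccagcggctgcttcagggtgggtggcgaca
Ryr1, chr7:29125102-29125401, minus strand: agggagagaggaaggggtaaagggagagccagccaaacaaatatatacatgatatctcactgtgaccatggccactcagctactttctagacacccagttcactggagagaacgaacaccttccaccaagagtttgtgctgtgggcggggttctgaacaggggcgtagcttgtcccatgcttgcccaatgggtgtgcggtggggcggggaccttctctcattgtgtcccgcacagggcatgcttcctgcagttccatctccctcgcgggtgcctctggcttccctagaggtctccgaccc
The Cacna1s window held 2 E-boxes, of which 1 was CAGCTG, the Jph2 window held 1, also CAGCTG, and the Ryr1 window held 0. Among genes whose sign changed between fits, the window of Ryr2 held 2, those of Cacna1c held 1, 2 and 3, and those of Cacnb1 held 1 and 0. Of the genes that stayed lower in every fit only Cacna1s and Jph2 had windows, so a division by direction could not be assessed. RefSeq windows were matched for 6 of the triad genes, 10 windows in all, and none was matched for Jph1, Trdn, Cacng1 or Stac3. CANNTG was present in 8 of the 10 windows and in 72.3% of all 32851 windows. CAGCTG, a case of CANNTG, was present in 4 of the 10 (2 of these are overlapping Jph2 windows that hold the same site) and in 16.3% of all windows, and CACGTG, another case, in 0 of the 10 and in 7.15% of all. These motifs read the same on both strands. A match in a window is a description of its letters, and no binding was measured in these samples.

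Ryr1 (ENSMUSG00000030592; GRCm38 chromosome 7, 29003344 to 29125179, minus strand) encodes the calcium release channel of skeletal muscle. Its level was 9729, 9163 and 3842 CPM in AAV-GFP replicates 1, 2 and 3. In AAV-RBM20 replicates 1, 2 and 3 it was 9760, 9836 and 4209 CPM. The libraries numbered 3 were low in both groups, 2.46-fold below the other replicates in AAV-GFP and 2.33-fold below them for AAV-RBM20, and the groups overlapped. For Ryr1 the estimated log2 fold change was 0.066 ± 0.42 (SE; edgeR adjusted p = 0.972). Its sign turned when single libraries were left out, to -0.25 for AAV-GFP replicate 3 and to -0.12 and -0.10 for replicates 2 and 1 of AAV-RBM20. Within same-numbered pairs, where the low libraries face each other, the log2 difference of Ryr1 was 0.0046, 0.10 and 0.13, and without the pair numbered 3 its log2 fold change was 0.060.

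Ryr2 (ENSMUSG00000021313; chromosome 13, 11553102 to 12106945, minus strand) encodes the release channel of heart muscle and was the least abundant triad gene. Its raw counts were 19, 36 and 13 with the GFP vector and 32, 25 and 30 with the RBM20 vector. The groups overlapped at these low counts, and no difference in Ryr2 was detected (log2 fold change 0.22 ± 0.47 SE, edgeR adjusted p = 0.899). The estimate turned to -0.13 without AAV-GFP replicate 3 and to -0.14 without both libraries numbered 3. Heart muscle markers were measured beside it: of 6 genes, 3 passed the filter (1 higher, 2 lower), their summed level was 10.7 to 17.8 CPM in AAV-GFP and 9.18 to 30.7 CPM in AAV-RBM20, and none of the 6 was at 0 in all libraries. Ankrd1, which stressed skeletal muscle also expresses, made up much of this sum, at 6.84 to 9.30 CPM in AAV-GFP and 6.92 to 28.5 CPM in AAV-RBM20. Myh6 lay between 1.79 and 8.39 CPM and the atrial marker Myl7 between 0 and 0.190 CPM. Their part in the level of Ryr2 was not tested.

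Cacna1s (ENSMUSG00000026407; chromosome 1, 136052750 to 136119822, plus strand) encodes the pore and voltage sensor of Cav1.1. The AAV-GFP libraries gave 1898, 1752 and 1220 CPM. The AAV-RBM20 libraries gave 1419, 1485 and 862 CPM. Replicate 3 was the lowest library of each group, and AAV-GFP replicate 3 lay below 2 of the AAV-RBM20 libraries, so the groups overlapped although AAV-RBM20 was lower in 3 of 3 same-numbered pairs. Means of Cacna1s were 1623 ± 357 CPM for AAV-GFP and 1255 ± 343 CPM for AAV-RBM20 (SD, n = 3 each). This was a log2 fold change of -0.37 ± 0.26 (SE; edgeR adjusted p = 0.690). Single libraries moved the Cacna1s estimate, to -0.15 without AAV-RBM20 replicate 3, -0.25 without AAV-GFP replicate 1 and -0.54 without AAV-GFP replicate 3. With the replicate block it was -0.39, with an SE of 0.12.

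Cacna1c (ENSMUSG00000051331; chromosome 6, 118587240 to 119196418, minus strand) encodes Cav1.2, the L-type channel of heart and smooth muscle. It measured 14.0, 15.4 and 5.17 CPM in AAV-GFP and 13.7, 11.7 and 9.62 CPM in AAV-RBM20. AAV-GFP replicate 3 was the low library, 2.82-fold below the other replicates of its group, and the groups overlapped. Cacna1c had a log2 fold change of 0.023 ± 0.37 (SE, edgeR adjusted p = 0.990) over all libraries of -0.20 without both libraries numbered 3, of -0.33 without AAV-GFP replicate 3 and of -0.11 without AAV-RBM20 replicate 1, so its sign was not stable. Of 8 smooth muscle markers, 3 were higher and 5 were lower in AAV-RBM20, with a median log2 fold change of -0.058. Their summed level was 2264 to 2676 CPM in AAV-GFP and 2086 to 2382 CPM in AAV-RBM20, most of it from Des, which muscle fibers also express.

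Cacnb1 (ENSMUSG00000020882; chromosome 11, 98001508 to 98023034, minus strand) encodes the beta subunit that carries Cav1.1 to the T-tubule. Its means were 145 ± 12.0 CPM for AAV-GFP and 145 ± 28.7 CPM for AAV-RBM20 (SD, n = 3 each). The libraries gave 159, 141 and 137 CPM in AAV-GFP and 157, 166 and 112 CPM in AAV-RBM20, with overlapping groups. The estimate for Cacnb1 was a log2 fold change of -0.0050 ± 0.17 (SE; edgeR adjusted p = 0.995). Its sign depended on the scaling and the libraries, with 0.037 under upper quartile factors, 0.11 without both libraries numbered 3, 0.16 without AAV-RBM20 replicate 3 and 0.061 without AAV-GFP replicate 1.

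Cacng1 (ENSMUSG00000020722; chromosome 11, 107703218 to 107716522, minus strand) encodes the gamma subunit of the skeletal muscle channel. It measured 163, 147 and 195 CPM in AAV-GFP and 140, 146 and 106 CPM in AAV-RBM20. The groups did not overlap, but the closest libraries were 146.8 and 146.0 CPM, and AAV-RBM20 replicate 3 was the low point. The estimate for Cacng1 was a log2 fold change of -0.37 ± 0.17 (SE; edgeR adjusted p = 0.641), or -0.23 without AAV-RBM20 replicate 3.

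Stac3 (ENSMUSG00000040287; chromosome 10, 127501686 to 127508823, plus strand) encodes an adaptor that Cav1.1 needs for coupling to RyR1. The AAV-GFP libraries lay within 133.0 to 133.7 CPM, the narrowest spread of any triad gene in that group relative to its level. The AAV-RBM20 libraries gave 118, 124 and 88.4 CPM, all below AAV-GFP. Stac3 had a log2 fold change of -0.27 ± 0.15 (SE; edgeR adjusted p = 0.657), which was -0.13 without AAV-RBM20 replicate 3.

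Jph1 (ENSMUSG00000042686; chromosome 1, 16964560 to 17097889, minus strand) encodes junctophilin 1, which holds the reticulum against the T-tubule. It measured 630, 620 and 730 CPM in AAV-GFP. In AAV-RBM20 it measured 474, 503 and 501 CPM. All AAV-RBM20 libraries were below all AAV-GFP libraries, and the libraries numbered 3 were not low for this gene. Means of Jph1 were 660 ± 60.7 CPM for AAV-GFP and 493 ± 15.9 CPM for AAV-RBM20 (SD, n = 3 each), a difference of -25.3%. Its log2 fold change of -0.42 ± 0.13 (SE) came with an unadjusted p of 0.0133 and an adjusted p of 0.618 in edgeR. The two-sided exact permutation test of Jph1 gave p = 0.1, the smallest that 3 against 3 samples allow. Over the 18 alternatives the log2 fold change of Jph1 lay between -0.50 and -0.35, and the adjusted p (edgeR, DESeq2 and limma-voom) between 0.00894 and 0.999.

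Jph2 (ENSMUSG00000017817; chromosome 2, 163336242 to 163397993, minus strand) encodes junctophilin 2, the paralog that the heart also uses. The AAV-GFP libraries gave 699, 669 and 871 CPM and the AAV-RBM20 libraries gave 600, 658 and 531 CPM. The groups did not overlap, although the closest pair was 669 and 658 CPM, and replicate 3 was the high library of AAV-GFP and the low library of AAV-RBM20. Jph2 had a log2 fold change of -0.32 ± 0.16 (SE; edgeR adjusted p = 0.648), which was -0.20 without AAV-GFP replicate 3.

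Trdn (ENSMUSG00000019787; chromosome 10, 33080554 to 33476709, plus strand) encodes triadin, which links the ryanodine receptor to calsequestrin in the reticulum. It measured 981, 897 and 1508 CPM in AAV-GFP and 762, 801 and 915 CPM in AAV-RBM20. Replicate 3 was the high library of both groups, 1.61-fold above the other AAV-GFP replicates and 1.17-fold above the other AAV-RBM20 replicates. AAV-RBM20 replicate 3 lay above AAV-GFP replicate 2, so the groups overlapped, while every same-numbered pair was lower in AAV-RBM20. Trdn had a log2 fold change of -0.45 ± 0.22 (SE; edgeR adjusted p = 0.641), which was -0.26 (adjusted p = 0.0814) without both libraries numbered 3 and -0.19 without AAV-GFP replicate 3 alone.

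**Figure D2:**
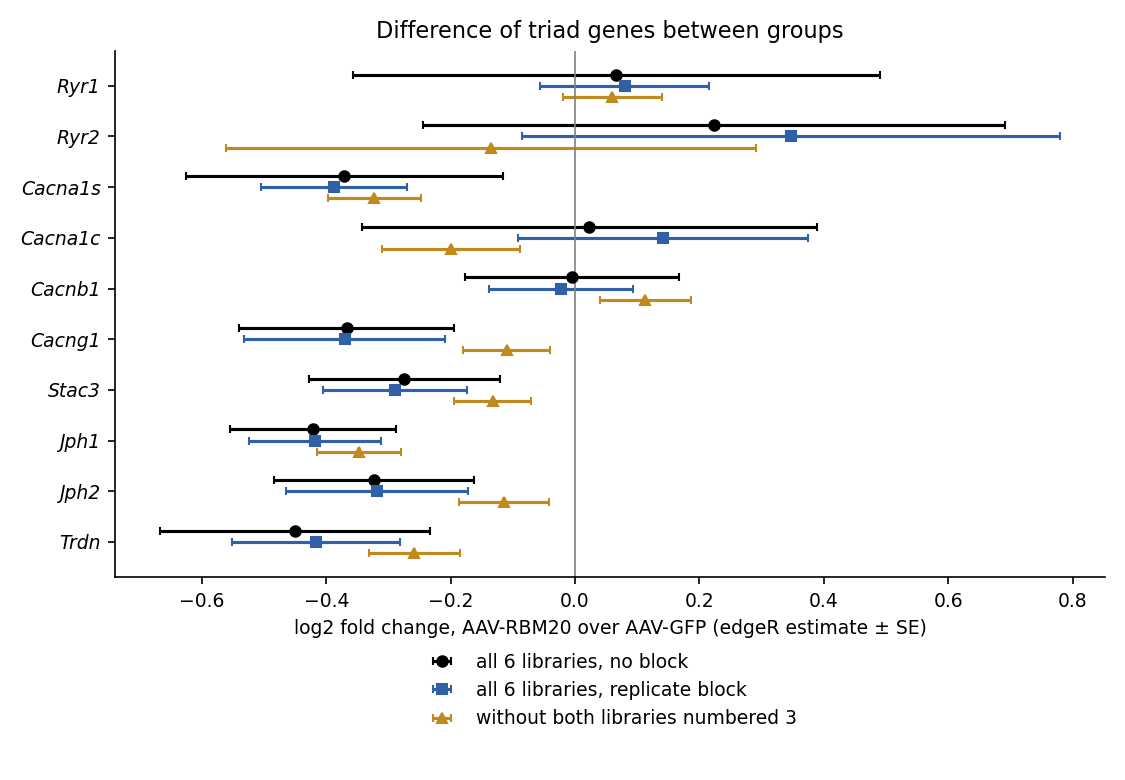
Log2 fold change of AAV-RBM20 over AAV-GFP for each triad gene (x axis, edgeR estimate ± SE) over all 6 libraries without and with the replicate block and without both libraries numbered 3. Cacna1s, Cacng1, Stac3, Jph1, Jph2 and Trdn lie left of 0 in all 3 fits, and the estimates of Ryr2, Cacna1c and Cacnb1 lie on either side of 0.

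By role, the junctional proteins Jph1, Jph2 and Trdn had the lowest median log2 fold change, -0.42, with 3 of 3 lower. The L-type channel genes had a median of -0.27, with 4 of 5 lower. The ryanodine receptors had a median of 0.14, with 2 of 2 higher. Summed over Jph1, Jph2 and Trdn, the level was 2311, 2186 and 3108 CPM in AAV-GFP and 1836, 1963 and 1947 CPM in AAV-RBM20, with no overlap. Of the 10 triad genes, 6 (Cacna1s, Cacng1, Stac3, Jph1, Jph2 and Trdn) had a negative log2 fold change in all 18 alternatives, and the other 4 changed sign in at least 1, as Ryr1 did in 3, Ryr2 in 2, Cacna1c in 3 and Cacnb1 in 5. The alternatives are refits of the same libraries or of some of them, so a kept sign is not independent evidence. The share of all genes that kept their sign was not computed.

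The libraries numbered 3 moved the triad genes in different directions. In AAV-GFP, replicate 3 was below the other replicates for 6 triad genes and above them for 4, and in AAV-RBM20 for 7 and 3. Over the 10 triad genes, the Spearman correlation of this deviation with merged exon length was -0.61 in AAV-GFP and 0.091 in AAV-RBM20, as a description over genes that share the same libraries. Over 17196 genes it was -0.12 and -0.085. The difference of Ryr1 in replicate 3 stood at the 6.59th percentile of all genes in AAV-GFP and at the 1.18th percentile in AAV-RBM20.

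**Figure D3:**
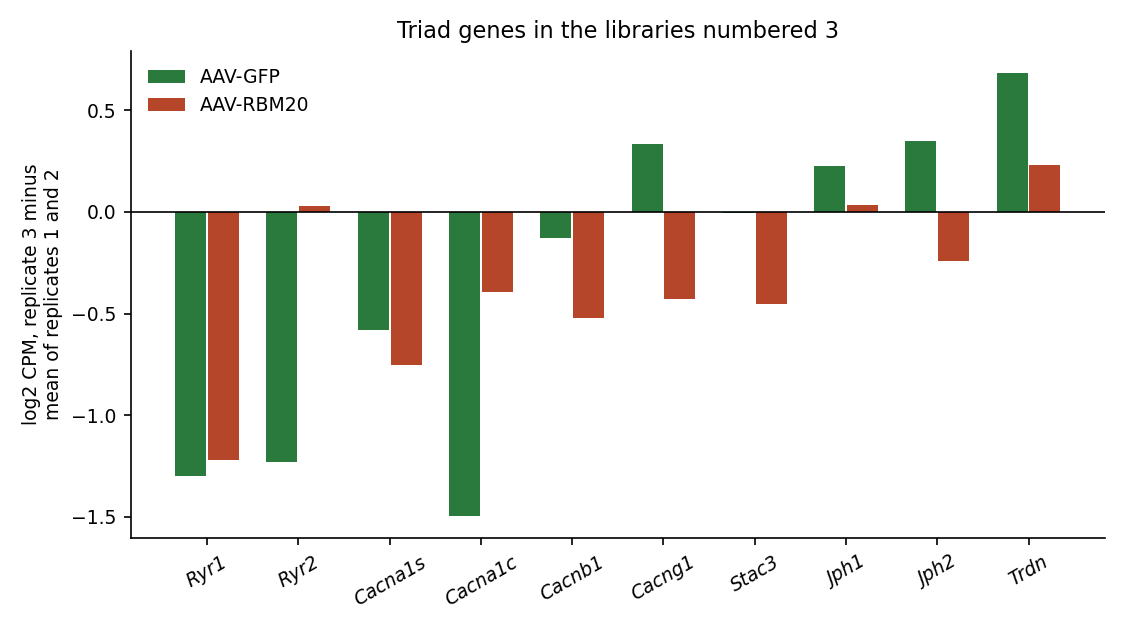
Log2 CPM of replicate 3 minus the mean of replicates 1 and 2 of the same group (y axis) for each triad gene. Ryr1 (-1.30 for AAV-GFP, -1.22 for AAV-RBM20) and Cacna1s (-0.58 and -0.75) were low in both libraries numbered 3, and Trdn (0.68 and 0.23) was high in both.

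Levels were compared between genes as CPM per kilobase of merged exons. Ryr1 was highest in AAV-GFP at 347 CPM per kilobase, followed by Cacna1s at 248, Jph2 at 175, Cacng1 at 135, Jph1 at 132 and Trdn at 121. Stac3 at 52.4 and Cacnb1 at 32.1 CPM per kilobase were lower, and the heart paralogs Cacna1c at 0.543 and Ryr2 at 0.0183 CPM per kilobase were far below all others. Ranges of neighbors in this order overlapped in both groups for Ryr1 and Cacna1s, Cacna1s and Jph2, Cacng1 and Jph1, and Jph1 and Trdn. They did not overlap for Jph2 and Cacng1, whose closest AAV-GFP values were 157 and 156 CPM per kilobase, nor for Trdn and Stac3, Cacnb1 and Cacna1c, or Cacna1c and Ryr2. Stac3 and Cacnb1 were apart in AAV-GFP and overlapped in AAV-RBM20. The order also depended on the library, since in AAV-GFP replicate 3 Jph2 (205 CPM per kilobase) and Cacna1s (186) were above Ryr1 (176). Merged exons were used for every gene, so a gene with long exons that muscle does not use has its level per kilobase understated.

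**Figure D4:**
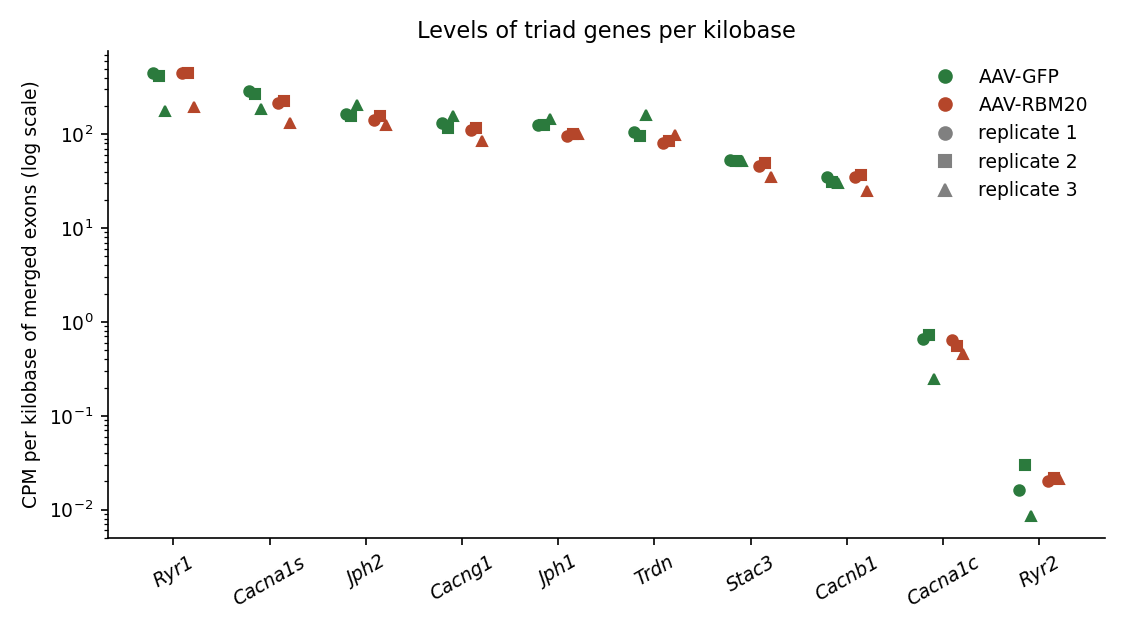
CPM per kilobase of merged exons (y axis, log scale) of the triad genes in each library, ordered by the AAV-GFP mean from 347 for Ryr1 to 0.0183 for Ryr2. The 8 skeletal muscle genes lie above 24 CPM per kilobase in every library, and Cacna1c and Ryr2 lie below 1.

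The balance between skeletal and heart paralogs was compared within each library, where scaling cancels. Ryr1 exceeded Ryr2 by 8984-fold to 27443-fold per kilobase. The log2 ratio of Ryr2 to Ryr1 was 0.31 higher in AAV-RBM20 (two-sided exact permutation test, p = 0.7), with overlapping groups. Cacna1s exceeded Cacna1c by 290-fold to 764-fold per kilobase, and the log2 ratio of Cacna1c to Cacna1s was 0.54 higher in AAV-RBM20 (exact permutation p = 0.2). Jph2 was at 125 to 154% of Jph1 per kilobase, with a log2 ratio 0.099 higher in AAV-RBM20 (exact permutation p = 0.4). Without both libraries numbered 3 the differences were -0.13, 0.12 and 0.23. Over all 6 libraries, none of these 3 ratios differed beyond the spread between libraries, and the smallest p this design allows is 0.1. Without both libraries numbered 3, the groups did not overlap in the ratio of Jph2 to Jph1 and overlapped in the others. The log2 ratio of Jph2 to Jph1 was 0.38 and 0.34 in those AAV-GFP libraries and 0.57 and 0.62 in those AAV-RBM20 libraries. The smallest exact permutation p for 2 against 2 libraries is 0.333.

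Other genes of calcium release were taken from 5 lists of 42 genes, of which 38 were tested. Of these, 28 were lower and 10 were higher in AAV-RBM20, with a median log2 fold change of -0.12 against 0.0090 over all genes. In edgeR 0 passed an adjusted p of 0.05, with 7 of 38 lower and 2 of 38 higher at an unadjusted p of 0.05, beside 3.82% and 4.08% of all genes. With the replicate block 1 of 38, Cacng7, passed the adjusted p, beside 0.145% of all genes. The partners of the ryanodine receptor were lower in 6 of 6 tested (median -0.38), and triad and T-tubule structure genes in 9 of 9 (median -0.14). Sarcoplasmic reticulum store genes were lower in 7 of 8 (median -0.18), store-operated entry genes in 3 of 5 (median -0.022) and other voltage-gated channel subunits in 3 of 10 (median 0.097).

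Cacng7, which encodes a gamma subunit of the family of Cacng1, had the largest difference of the 38. It measured 24.7, 25.9 and 18.6 CPM in AAV-GFP and 12.4, 13.2 and 8.52 CPM in AAV-RBM20, without overlap. This gave a log2 fold change of -1.02 ± 0.20 (SE) and an edgeR adjusted p of 0.517, or 0.0251 with the replicate block. Jsrp1, which encodes the junctional protein JP-45, measured 167 to 221 CPM in AAV-GFP and 133 to 145 CPM in AAV-RBM20 (log2 fold change -0.44, edgeR adjusted p = 0.618). Stim2, a calcium sensor of the reticulum, had a log2 fold change of -0.46 (edgeR adjusted p = 0.618) with no overlap. Atp2a2, the calcium pump of slow and heart muscle, pointed the other way at 32.8 to 45.0 CPM in AAV-GFP and 44.8 to 61.7 CPM in AAV-RBM20 (log2 fold change 0.48, edgeR adjusted p = 0.618), with overlapping groups.

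**Figure D5:**
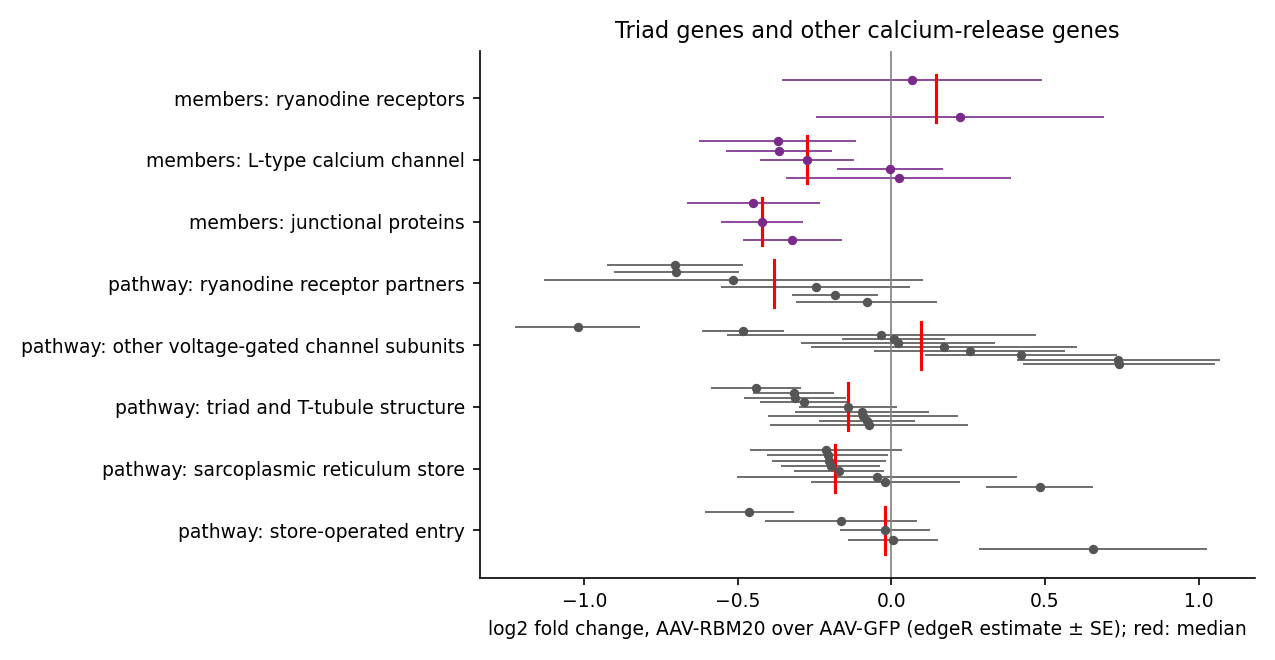
Log2 fold change of AAV-RBM20 over AAV-GFP (x axis, edgeR estimate ± SE) for the tested triad genes (purple, 3 lists) and 38 other calcium release genes (gray, 5 lists), with the median of each list in red. All points of the junctional protein, ryanodine receptor partner and triad structure lists lie left of 0.

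Markers of the fibers and of other cells were measured beside the triad genes. Of all 17222 genes tested, 8829 were higher and 8393 were lower in AAV-RBM20 by sign. Fast muscle fiber markers were lower in 7 of 8 (median log2 fold change -0.46), with a summed level of 94172 to 102634 CPM in AAV-GFP and 61343 to 90132 CPM in AAV-RBM20, without overlap. This list and its sum include Acta1 and Ckm, which slow muscle fibers also express. Slow fiber markers were higher in 5 of 7, at a summed 11.8 to 46.6 CPM and 28.9 to 74.9 CPM. Most of this sum came from Myl3, at 10.8 to 40.6 CPM in AAV-GFP and 21.3 to 58.3 CPM in AAV-RBM20. Markers of regenerating or denervated fibers were higher in 6 of 6 tested of 8, at a summed 19.4 to 26.0 CPM in AAV-GFP and 34.9 to 57.6 CPM in AAV-RBM20, without overlap. Macrophage markers were higher in 7 of 8, at 30.1 to 101 CPM and 64.3 to 146 CPM, and fibro-adipogenic markers in 6 of 7, at 512 to 1075 CPM and 869 to 1124 CPM. Endothelial markers were higher in 5 of 6, at 165 to 382 CPM and 254 to 362 CPM. At an unadjusted p of 0.05 in edgeR, 5 of 6 markers of regenerating or denervated fibers were higher, beside 4.08% of all genes. So were 1 slow fiber, 1 macrophage and 1 fibro-adipogenic marker, while 2 of 8 fast fiber markers were lower, beside 3.82%. Groups did not overlap in 5 of 6 markers of regenerating or denervated fibers, all higher, beside 1328 of 17222 genes, and in 3 of 8 fast fiber markers, all lower, beside 9.04%. No marker of these lists was at 0 in all libraries, and 0 passed an adjusted p of 0.05 in edgeR, while with the replicate block 1 macrophage marker and 1 marker of regenerating or denervated fibers did, beside 0.145% of all genes. The part of these marker differences in the lower values of the triad genes was not tested.

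The triad genes did not follow 1 profile over the 6 libraries: as a description, pairwise Pearson correlations of their log2 CPM ran from -0.85 for Ryr2 and Trdn to 0.97 for Cacng1 and Jph2, and that of Ryr1 and Trdn was -0.72. Their average profile, the mean of their standardized log2 CPM, was 0.50, 0.41 and 0.11 for AAV-GFP and -0.087, 0.11 and -1.04 for AAV-RBM20, so that AAV-RBM20 replicate 3 was the extreme library. Over the 6 libraries, the genes outside the lists that followed this average most closely were Nt5dc3 (Pearson's r = 0.996), St3gal3 (0.996), Pla2g7 (0.992), Prkce (0.992) and Mars (0.991). These correlations describe 6 libraries of 2 groups, and 340 of 7875 candidate genes exceeded 0.9.

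Exons of 4 triad genes (Ryr1, Cacna1s, Cacnb1 and Jph1) share bases with 5 annotated genes on the opposite strand. Those partners had at most 28 counts in any library, against at least 5452 for each of these triad genes. The shared stretches were 1309 bases for Cacna1s, 864 and 50 for Ryr1, 80 for Cacnb1 and 34 for Jph1. The strand setting of the counting is not given, so low partner counts cannot show whether the overlap affected the levels of these triad genes.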

How the data were processed

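RNA was isolated from pulverized TA muscle, depleted of ribosomal RNA and made into stranded libraries. Per the submitters' processing notes, reads were mapped to mm10 with HISAT2 and assigned to genes with HTSeq. The table used here holds raw counts that the authors deposited, as whole numbers per Ensembl gene with no normalization. The strand setting of the counting, the annotation release and the tool versions are not given in the sources used here. A second table, described as DESeq2-normalized, was not used. Symbols, positions and merged exon lengths came from GENCODE mouse release 21 on GRCm38, the assembly of mm10, and 260 identifiers had no symbol. Total counts were 41400132 to 54226618 per library, and precision beyond counting error rests on 3 libraries per group. The labels do not say that replicates are separate animals, so p-values measure the spread between these samples. Replicates of a group differed by more than sampling noise (chi-square per degree of freedom 15.1 to 545).

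Groups were compared with edgeR 4.0.16 in R 4.3.3 (filterByExpr, TMM, glmQLFit with robust estimation, glmQLFTest, no covariate), and p-values were adjusted over all 17222 genes tested. The script was tested on simulated data. Alternatives were other scalings and filters, DESeq2 1.42.0, limma-voom (limma 3.58.1), the replicate block, exclusion of dominant genes, and exclusion of libraries. Replicate numbers were taken from the titles, which share them between groups. The sample descriptions instead number on from AAV-GFP to AAV-RBM20. Deviations from the group means correlated at 0.42, 0.20 and 0.48 between same-numbered libraries, at 0.22 and 0.13 in 2 differently numbered combinations and at -0.42 to -0.22 in the other 4. All same-numbered values exceeded 0.1, so same-numbered libraries were treated as pairs, although no label explains the numbers and replicates 1 and 2 are separated only weakly. The 2 differently numbered combinations at 0.22 and 0.13 also exceeded 0.1, so this rule does not single out the numbering.

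The triad genes, gene lists and tests were chosen with earlier results of these data known. Named were all 10 triad genes, Rbm20, from each calcium release list the genes past the threshold (or past it with the block, or else the gene with the smallest p), and the 5 genes most correlated with the triad genes at a mean log2 CPM of at least 3. For 1 of these lists the gene named by the rule is not reported here. Heart markers Ankrd1, Myh6 and Myl7, smooth muscle marker Des, slow fiber marker Myl3 and the genes of each list given by name beside a count were chosen after their values were seen.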

Additional observations from a re-analysis of the deposited data

How the results depend on the processing

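With the replicate block, edgeR called 25 genes and 0 triad genes, and DESeq2 called 514 genes and 3 triad genes. Without the block, DESeq2 called 72 genes, and edgeR called 8 with no filter on low counts and 690 (2 of them triad genes) without both libraries numbered 3. Every exclusion of a single library left 0 calls, as did the exclusion of both libraries numbered 1 or of both numbered 2. Log2 fold changes that crossed the threshold were -0.40 for Cacna1s, -0.44 for Jph1 and -0.43 for Trdn in DESeq2 with the block, and -0.32 for Cacna1s and -0.35 for Jph1 without both libraries numbered 3. The block changed no other call of a triad gene. The cause of these differences between tools was not tested.

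The median of the triad genes lay between -0.39 and -0.14 when single libraries were left out and was -0.13 without both libraries numbered 3. Signs turned for Ryr1 (-0.25 to 0.38 with single libraries left out), Ryr2 (-0.13 to 0.78, and -0.14 without both libraries numbered 3), Cacna1c (-0.33 to 0.29, and -0.20) and Cacnb1 (-0.12 to 0.16, and 0.11, besides 0.037 under upper quartile factors and 0.020 under the CPM filter). The log2 ratio of Ryr2 to Ryr1 ranged from -0.10 to 0.57 and was -0.13 without both libraries numbered 3, and its difference within same-numbered pairs, as a replicate block, was 0.31. The other 6 triad genes kept their sign in all 18 alternatives, of which the exclusions of both libraries numbered 1 or numbered 2 were added after seeing the data. These refits share libraries, and the share of all genes that kept their sign over them was not computed. DESeq2 with the block gave Ryr2 no adjusted p, and the CPM filter left Ryr2 untested.

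Ryr2 had the lowest counts of the triad genes, at 13 to 36 per library. Its 95% Poisson intervals in AAV-GFP replicates 2 (0.604 to 1.19 CPM) and 3 (0.132 to 0.422 CPM) did not overlap. Its libraries therefore also differed beyond counting error, and the part of depth in its SE was not tested. Without both libraries numbered 3 the SE went from 0.42 to 0.080 for Ryr1 and from 0.37 to 0.11 for Cacna1c. For Ryr2 it went from 0.47 to 0.43.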
